A study of Homo sapiens with 4 samples.

Results

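The subject is 5 long noncoding RNA genes, MALAT1, NEAT1, TUG1, NORAD and KCNQ1OT1, and the N6-methyladenosine (m6A) peaks listed inside them in GES-1 cells, a human gastric epithelial cell line. A peak was counted for a gene when its summit lay inside a span given in hg19 for that gene, rounded to the nearest kilobase, with no use of any peak value. The spans held 23 of the 63093 peaks listed for untreated cells and 18 of the 52188 peaks listed for cells given chenodeoxycholic acid (CDCA, a primary bile acid) at 100 µM for 48 h. The series held 4 samples, 1 input and 1 m6A immunoprecipitation (MeRIP) library for each of the 2 conditions, and concerned ALKBH5, an enzyme that removes m6A. Each condition had a single library and hence no replicate, so conditions were not tested against each other and every difference given here is one between 2 libraries. Both immunoprecipitation libraries came with a peak list, and these lists were used. They carry no gene names and no strand, and gastric epithelial markers were not checked here because the lists hold no expression values.

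m6A is written on RNA, often within a short GAC-containing context, by a nuclear methyltransferase complex, removed by demethylases such as ALKBH5 and FTO, and read by YTH-domain proteins among others. Long noncoding RNAs carry it as messenger RNAs do. MALAT1 is an abundant nuclear RNA of nuclear speckles, and one of the RNAs in which single m6A sites have been studied for their effect on a hairpin and on protein binding. NEAT1 builds paraspeckles, and its short and long isoforms share their 5′ end. NORAD is a cytoplasmic RNA that binds Pumilio proteins, TUG1 is a widely expressed RNA found in nucleus and cytoplasm, and KCNQ1OT1 is an imprinted nuclear RNA transcribed across the KCNQ1 locus in the antisense direction. All 5 symbols matched a RefSeq gene table for GRCh38.p14, which labels 4 of them as long noncoding RNA and TUG1 as protein_coding.

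The 5 genes fell into 3 kinds. In MALAT1 and TUG1 every listed peak overlapped a peak of the other list, although the lists divided part of TUG1 differently. KCNQ1OT1 carried many weak peaks of which few coincided. Their counts were too small to set that share apart from that of weak peaks over the whole lists. NORAD and NEAT1 had respectively 1 peak in 1 list and none in either. By gene, the control list held 1 peak in MALAT1, 0 in NEAT1, 7 in TUG1, 1 in NORAD and 14 in KCNQ1OT1. The CDCA list held 1, 0, 6, 0 and 11. The CDCA number was 78.3% of the control number inside the spans and 82.7% over the whole lists. Of the 23 control peaks, 11 met a CDCA peak in at least 1 bp, which is 47.8% (26.8 to 69.4, exact Clopper-Pearson 95% interval for counting error only) against 18.2% of all control peaks. Of the 18 CDCA peaks, 10 overlapped a control peak, 55.6% (30.8 to 78.5) against 22.2% of all CDCA peaks. The shares depended on the threshold. Among peaks with a fold of 10 or more, 10 of 16 in control and 9 of 9 in CDCA had a partner, against 25.5% and 37.9% of all such peaks. Where −log10 q reached 20, 10 of 18 and 9 of 11 were shared, against 29.5% and 48.2%. Peaks of 1 gene share their transcript and are not independent of each other. Strong peaks (−log10 q of 100 or more) made up 11 of the 23 control peaks and 7 of the 18 CDCA peaks, against 7.77% and 7.90% of the whole lists. Of these strong peaks, 10 of 11 in control and 7 of 7 in CDCA were shared, against 87.6% and 91.2% of all strong peaks. Below that level 1 of 12 and 3 of 11 were shared, against 12.3% and 16.3%. Set beside peaks of like strength, the shares in the 5 genes thus stood much closer to those of the lists.

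**Figure D1:**
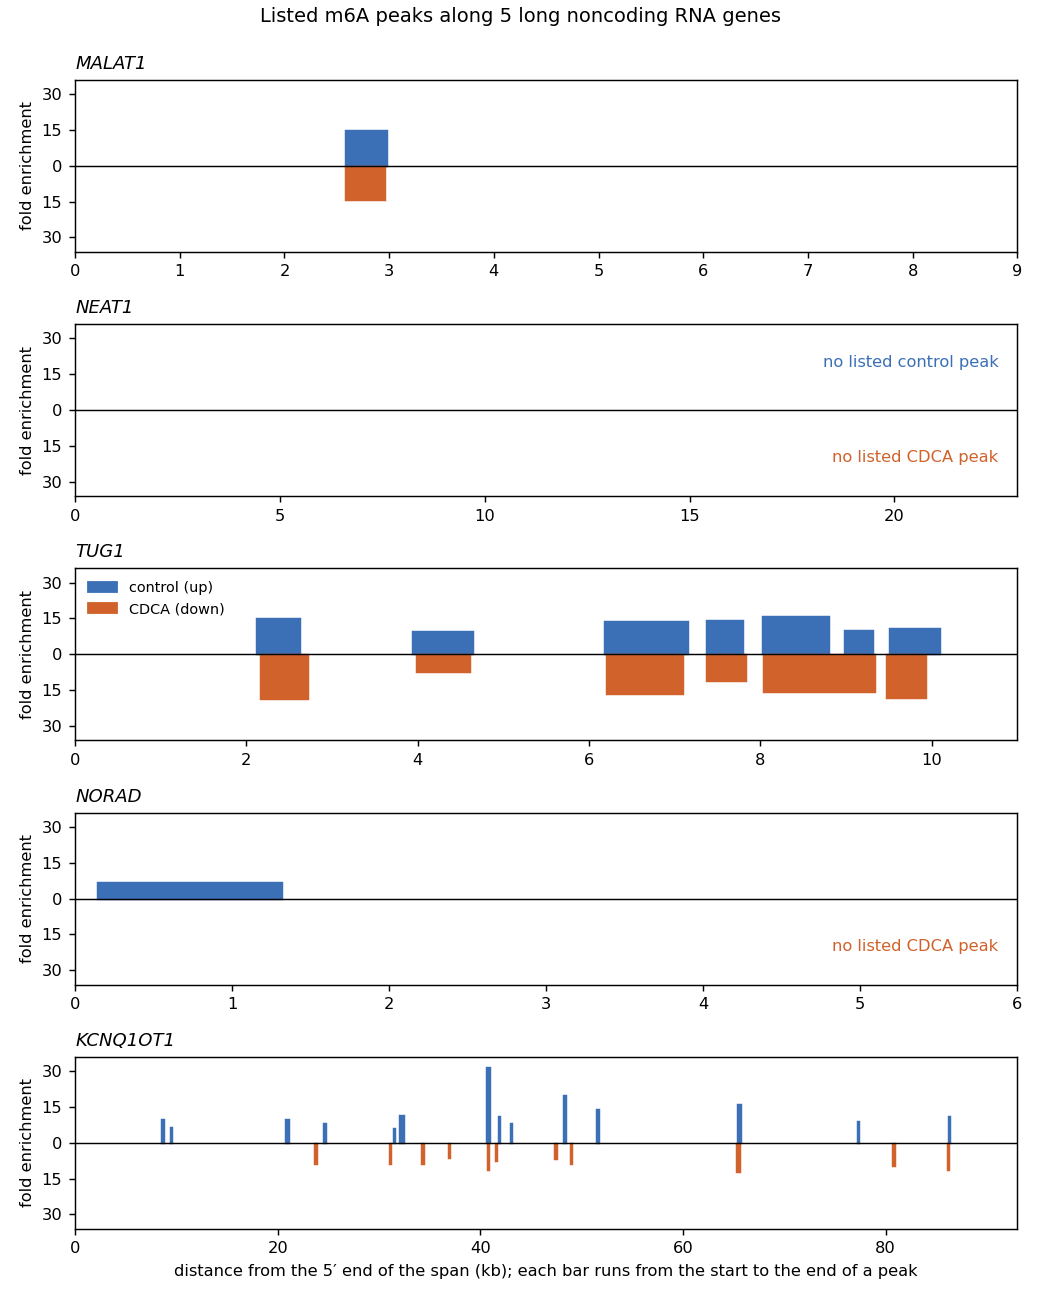
Listed peaks along each gene, with distance from the 5′ end of the span in kb on the horizontal axis and fold enrichment on the vertical axis, control bars upward and CDCA bars downward. Bars run from peak start to peak end. The 1 MALAT1 site and the TUG1 sites face each other in both lists, NEAT1 is empty, NORAD has a control bar only, and the KCNQ1OT1 bars coincide at 3 places.

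MALAT1 carried 1 listed peak, at the same place in both cell populations, and it was among the tallest peaks of either list. It lay on chromosome 11 at 65267580 to 65267975 in control and at 65267582 to 65267960 in CDCA-treated cells, with summits 11 bp apart and 2.78 and 2.77 kb from the 5′ end of the span. Summit height, the authors' pileup value, was 10487 in control and 9913 in CDCA. Both were the fourth highest of their list, and the peak was number 8 by −log10 q in both lists (8116 and 7511). The deposited fold enrichment, read here as height plus 1 over local background plus 1, was 15.1 in control and 14.5 in CDCA. These folds stood at percentiles 80.5 and 86.95 of their lists, below the place of the heights. The local background, the level over which the fold is taken, was computed from height and fold. It was 693 in control and 682 in CDCA, the fourth and the second highest of the lists.

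The log2 ratio of fold enrichment, CDCA over control, was -0.06 at the MALAT1 site. Its interval was -0.09 to -0.02 when only the counting error of the 2 heights was considered, taking 1 height step as 1 fragment (12159 and 15498 fragments). Over all 11186 overlapping pairs of the lists the median of the same ratio was -0.11, with quartiles at -0.64 and 0.39, so the MALAT1 value lay near the middle, at the 52.6th percentile. The counting interval is narrow because the site was covered so deeply. It holds the 2 local backgrounds fixed, so their own counting error is left out. The variation between cultures or between libraries, which was not measured, is left out as well. The peak covered 4.4% of the span in control and 4.21% in CDCA, and no other part of MALAT1 had a listed peak. Peaks carry running numbers with gaps where numbers are missing from the lists. No number was missing between the MALAT1 peak and the listed peak before it in either list, while 2 numbers in control and 1 in CDCA were missing between it and the next peak, which began 31.3 and 31.5 kb beyond the span.

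**Figure D2:**
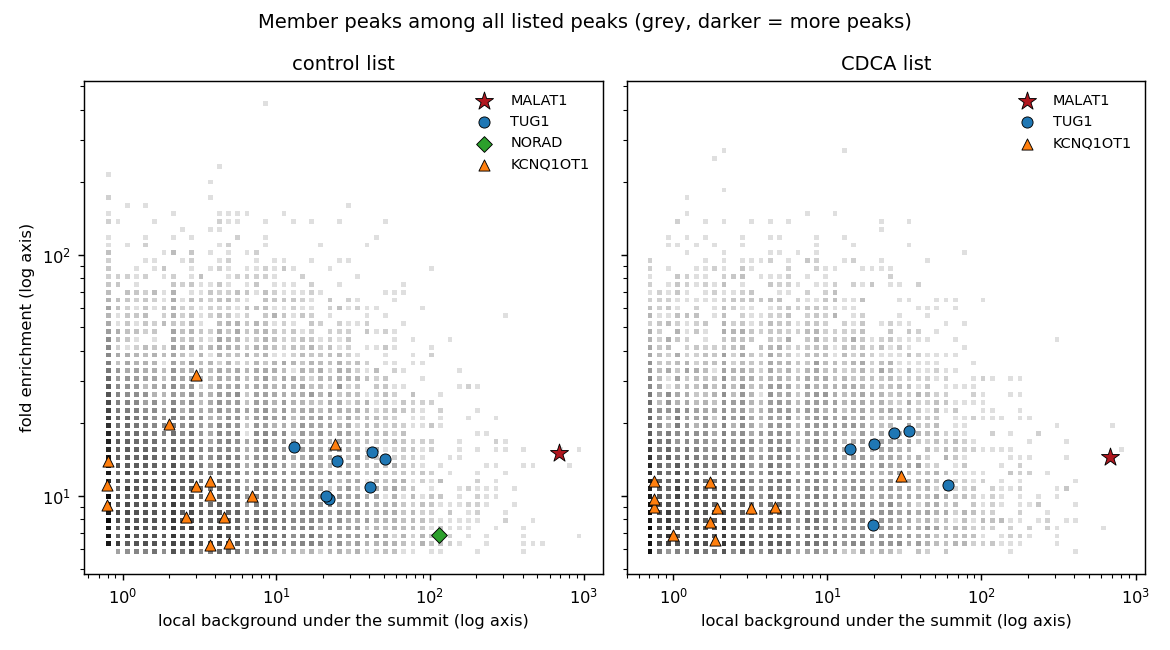
Fold enrichment against local background under the summit, both on log axes, for all listed peaks (grey squares, darker where more peaks lie) and for the peaks in the 5 genes (coloured symbols). MALAT1 stands at the far right of both lists with backgrounds of 693 and 682, NORAD at 115 in the control list, TUG1 between 13.1 and 61, and most KCNQ1OT1 peaks below 10.

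TUG1 was the gene most densely covered by peaks, and each of its listed peaks had a partner in the other list. The 7 control peaks covered 39.7% of the 11 kb span and the 6 CDCA peaks 39.5%. Of the bases covered in either list, 84.1% were covered in both. The summits ran from 2.30 to 9.66 kb from the 5′ end in control and from 2.35 to 9.74 kb in CDCA, so the first 2 kb held none. All 7 control peaks and 5 of the 6 CDCA peaks were strong. Among strong peaks, 87.6% of the control list and 91.2% of the CDCA list had a partner, so the complete sharing of TUG1 stood close to what strong peaks in general showed.

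The most significant TUG1 site in control lay at 31372368 to 31372799 on chromosome 22, with a height of 739, a fold enrichment of 14.2 and a −log10 q of 558. Its CDCA partner at 31372364 to 31372835 had a height of 686, a fold of 11.1 and a −log10 q of 448. The most significant site in CDCA was the first from the 5′ end, at 31367156 to 31367723, with a height of 652, a fold of 18.7 and a −log10 q of 567. In control this site, at 31367107 to 31367626, had a height of 656 and a fold of 15.3, second in the gene by −log10 q at 515. At both sites the heights of the lists were closer to each other than the folds were. The local background was 51 and 61 at the first of these sites, in control and CDCA, and 42 and 34 at the second.

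The last TUG1 site had the largest difference within the gene. It lay at 31374499 to 31375103 in control, with a fold of 10.9 and a height of 458, and at 31374469 to 31374940 in CDCA, with a fold of 18.2 and a height of 509. Its log2 fold ratio was 0.74, at the 86.2nd percentile of all pairs. The counting interval of 0.58 to 0.90 covers the heights alone and leaves out the counting error of the local backgrounds. The local background moved with the ratio, from 41 in control to 27 in CDCA, and its part in the result was not tested. The ratio of heights alone, each first divided by the lowest background of its list, was 0.25 on the log2 scale at this site. The site at 31371174 to 31372159 had a fold of 13.9 in control and 16.5 in CDCA (log2 ratio 0.24, 0.06 to 0.43).

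The remaining TUG1 sites were weaker in height. The second from the 5′ end, at 31368938 to 31369643, had a fold of 9.73 in control and 7.61 in CDCA (log2 ratio -0.35, -0.61 to -0.10), and its 2 summits lay 343 bp apart. This was the TUG1 site below the strong level in CDCA, with a −log10 q of 80.3 against 135 in control. Between 8.02 and 9.31 kb the lists divided the sequence differently. The control list had 2 peaks there, at 31373020 to 31373804 (fold 15.9) and 31373981 to 31374313 (fold 10.04), and the CDCA list had 1 peak of 1312 bp across both (31373026 to 31374337, fold 15.6). The listed peak numbers of TUG1 differ by 1 through this place. From the first to the last listed peak of the gene, 1 running number was missing in CDCA and 0 in control. Where in the gene the missing CDCA number fell was not examined. Paired with the stronger control peak, the CDCA peak gave a log2 ratio of -0.02 (-0.26 to 0.21), although its summit lay 752 bp away. Against the weaker control peak, whose summit was 17 bp from its own, the ratio was 0.64 (0.40 to 0.87), with a background of 21 in control and 14 in CDCA. The value at this place thus turns on the choice of partner.

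Across the 6 TUG1 pairs the log2 fold ratio ranged from -0.36 to 0.74 with a median of 0.11, and 3 pairs were higher in CDCA and 3 in control (4 and 2 on the scale of heights divided by the lowest background). On that height scale the 6 pairs ranged from -0.40 to 0.25 with a median of 0.06. None of the TUG1 pairs differed by as much as 2-fold in fold enrichment. In the whole lists, 14.2% of pairs were at least 2 times lower in CDCA and 8.39% at least 2 times higher. One more pair lay just outside the TUG1 span and was not counted. Its summits stood 1020 bp (control) and 989 bp (CDCA) before the 5′ end of the span, with folds of 25.3 and 35.7. In the RefSeq table MORC2 is the gene next to TUG1, and without an hg19 annotation and strand the gene of this pair was not assigned.

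**Figure D3:**
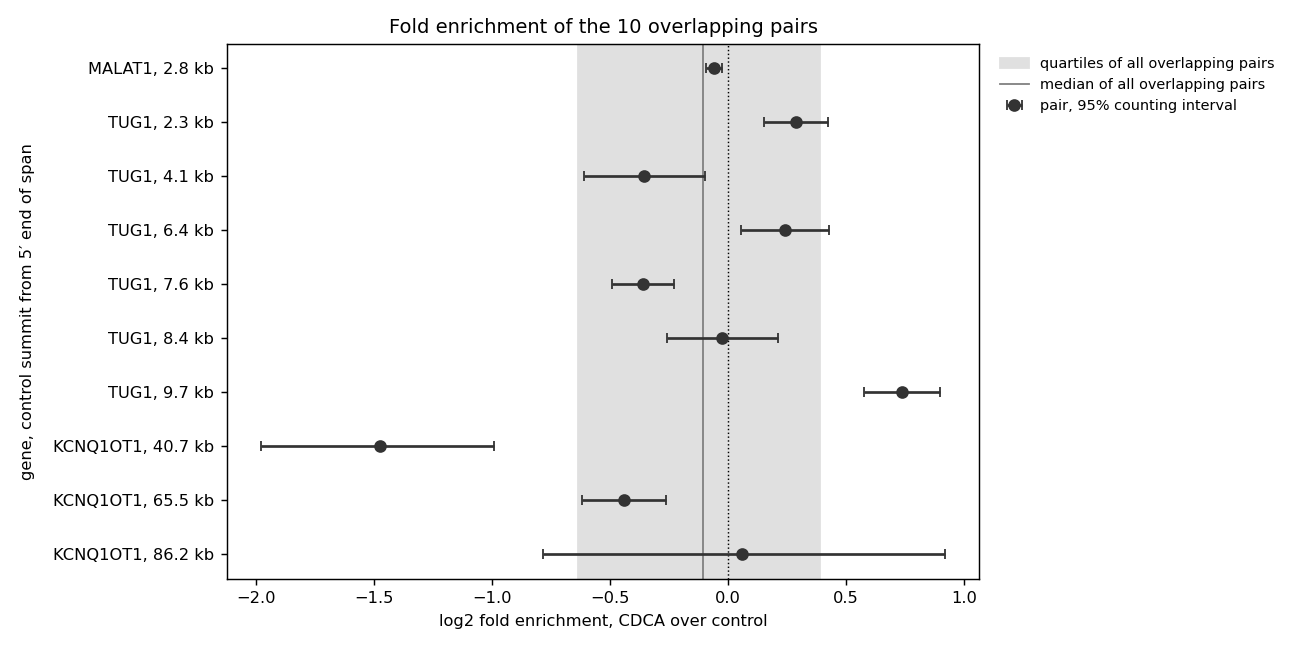
Log2 ratio of fold enrichment, CDCA over control, for each of the 10 overlapping pairs in MALAT1, TUG1 and KCNQ1OT1, with 95% intervals for counting error of the heights. The grey band marks the quartiles of all 11186 overlapping pairs (-0.64 to 0.39). The TUG1 site at 9.7 kb (0.74) lies to the right of the band, the KCNQ1OT1 site at 40.7 kb (-1.47) lies to its left, and the other 8 lie inside. The TUG1 site at 8.4 kb is paired with the stronger of 2 control peaks; with the weaker one its ratio is 0.64.

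NORAD had a peak in control cells alone. It lay on chromosome 20 at 34637684 to 34638862, within the first 1.32 kb from the 5′ end of the span, and its length of 1179 bp covered 19.7% of the span. Its height was 795 (number 549 of the control list) and its −log10 q 371. Its fold enrichment was 6.86, at the 15.8th percentile of the control list, over a local background of 115 that ranked number 105 in that list. No peak with a fold below 6 was listed in either library, so the NORAD peak stood little above the lowest fold found in the lists. Among strong control peaks, 87.6% had a CDCA partner, and NORAD was the 1 of the 11 strong control peaks in the 5 genes that had none.

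From the NORAD peak to the nearest listed CDCA peak the distance was 82021 bp. In the CDCA list 2 peak numbers were missing between the listed peaks to either side of NORAD, which ended 77.3 kb before and began 127 kb after the span. A missing number gives no position, so whether one of them belonged to NORAD was not tested. The lists therefore show that NORAD passed the authors' listing in control and did not pass it in CDCA, and give no CDCA value for the site. How large a change in fold this represents is not known.

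NEAT1 had 0 listed peaks in control and 0 in CDCA-treated cells over 23 kb, although it lies next to MALAT1 on chromosome 11. This held for the first 4 kb, common to the short and the long isoform, as well as for the remainder, which belongs to the long isoform. It also held when the span was widened by 1 kb on either side and when any overlap of a peak with the span was counted. The listed peaks on either side ended 14.7 kb before and began 10.8 kb after the span in control, and 9.87 kb before and 10.8 kb after in CDCA. Between these neighbours 3 peak numbers were missing in control and 1 in CDCA. What a missing number stands for is not stated. If each was a peak that was numbered and not listed, at most that many lay in NEAT1. The lists give no read coverage where no peak is listed, so little NEAT1 RNA, NEAT1 RNA without m6A and NEAT1 peaks that failed the authors' listing cannot be told apart.

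KCNQ1OT1 had the most listed peaks of the 5 genes, and most of them were weak and listed in 1 library only. Its 14 control peaks and 11 CDCA peaks covered 4.37% and 2.96% of the 93 kb span. Of these, 3 in each list overlapped a peak of the other, 21.4% (4.66 to 50.8) of the control peaks and 27.3% (6.02 to 60.97) of the CDCA peaks. Below a −log10 q of 100, 1 of 12 control peaks and 2 of 10 CDCA peaks were shared, against 12.3% and 16.3% of all such peaks in the lists. Counts this small do not set the share in KCNQ1OT1 apart from that of weak peaks anywhere, and cannot show that it is the same. Of the bases covered in either list, 12.4% were covered in both, against 84.1% in TUG1. The span lies inside the protein-coding gene KCNQ1 in the RefSeq table, and because the lists give no strand, peaks of KCNQ1OT1 and of KCNQ1 precursor RNA cannot be told apart.

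The strongest KCNQ1OT1 site stood 65.5 kb from the 5′ end of the span and was common to both lists. It lay on chromosome 11 at 2656315 to 2656672 in control, with a height of 410, a fold of 16.4 and a −log10 q of 335. In CDCA it lay at 2656322 to 2656743, with a height of 374, a fold of 12.1 and a −log10 q of 259. The summits were 7 bp apart, and the log2 fold ratio was -0.44 (-0.62 to -0.26). The local background under this site, 24 in control and 30 in CDCA, was unlike that of the rest of the span, where it reached at most 7.0 in control and 4.6 in CDCA.

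The second shared site showed the largest difference of the 10 pairs. In control it lay at 2681081 to 2681444, 40.7 kb from the 5′ end, with a height of 126, a fold of 31.7 and a −log10 q of 149. In CDCA it lay at 2681137 to 2681383 with a height of 30.1, a fold of 11.4 and a −log10 q of 24.4. The summits were 1 bp apart. Height was 4.19 times as high in control as in CDCA on the deposited scales, where 1 fragment counts 0.862 in control and 0.640 in CDCA. With each height first divided by the lowest background of its list, the log2 height ratio was -1.97. Fold enrichment was 2.78 times as high in control. The log2 fold ratio of -1.47 had a counting interval of -1.98 to -0.99 (146 and 47 fragments), with the backgrounds held fixed. The local background was also lower in CDCA, 1.72 against 3.0. The log2 fold ratio stood at the 5.55th percentile of all pairs. This was the 1 pair of 10 with a fold at least 2 times lower in CDCA, against 14.2% of all pairs. In control the peak had the highest fold of all 23 peaks in the 5 genes.

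The third shared site, near the 3′ end of the span, was weak in both lists. It lay at 2635665 to 2635864 in control and at 2635713 to 2635912 in CDCA, with heights of 19.0 and 19.2, folds of 11.1 and 11.6 and −log10 q values of 16.7 and 18.5. Its log2 fold ratio of 0.06 had a counting interval of -0.78 to 0.92 at 22 and 30 fragments, which spans 0.

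Of the 11 control-only peaks in KCNQ1OT1, 7 had a −log10 q of at least 20. Over the whole control list, shared peaks included, 31399 of 63093 peaks reached this level. The leading one of the 7, at 2673588 to 2673823, had a fold of 19.9, a height of 58.7 and a −log10 q of 60.1, with a CDCA peak 460 bp from it. The control-only peak closest to the 5′ end, at 2713219 to 2713537, had a fold of 10.04 and a −log10 q of 51.2, and no CDCA peak was listed within 14824 bp. Others were at 2689527 to 2689983 (fold 11.6, −log10 q 39.3), 2680077 to 2680283 (fold 11.03, 31.9) and 2700914 to 2701309 (fold 10.1, 31.4). The last of the 7 were at 2697239 to 2697571 (fold 8.19, 25.5) and 2670292 to 2670573 (fold 14.0, 25.2).

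Of the 8 CDCA-only peaks, 2 reached a −log10 q of 20. Over the whole CDCA list, shared peaks included, 17653 of 52188 peaks did so, a smaller part than in the control list. The 2 KCNQ1OT1 peaks were at 2698111 to 2698394 (fold 8.97, height 49.3, −log10 q 30.3) and at 2687600 to 2687816 (fold 8.92, height 36.5, −log10 q 22.9). Within 1 kb of a peak of the other list stood 5 of the 11 control-only and 5 of the 8 CDCA-only peaks. Over the whole lists 13% and 15.6% of unshared peaks did so. This difference was not tested, and the local density of peaks was not allowed for. The counts of the lists are not independent, because the neighbours 110, 117, 460 and 539 bp apart entered both. The closest such neighbours were 110 bp and 117 bp apart. All of these peaks rested on few fragments, 18 to 92 in control and 20 to 77 in CDCA. Within the gene, 7 numbers were missing between the first and last listed control peak and 3 between the first and last CDCA peak.

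The local background under KCNQ1OT1 summits was higher toward the 5′ end of the span in both lists. In the 31 kb nearest the 5′ end it ranged from 3.70 to 7.0 under 4 control peaks and was 4.6 under the 1 CDCA peak. In the middle 31 kb its median was 3.0 under 7 control peaks and 1.74 under 7 CDCA peaks. In the 31 kb nearest the 3′ end it stood at 0.798 under 2 control peaks and 0.746 under 2 CDCA peaks, close to the lowest levels of the lists (0.798 and 0.745), with the site at 65.5 kb as the exception. Background was known only where a peak was listed, so these values are not a profile of the whole RNA.

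**Figure D4:**
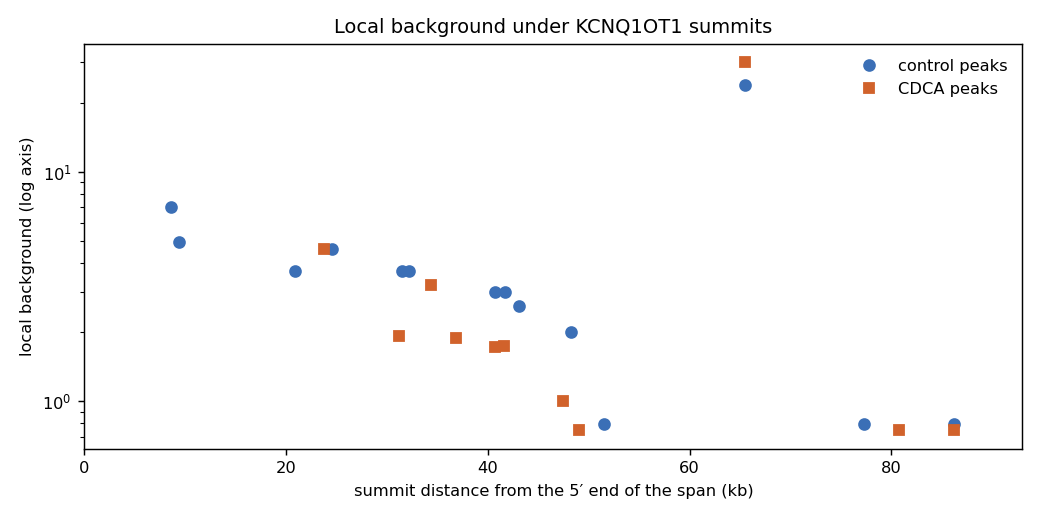
Local background under each KCNQ1OT1 summit (log axis) against the distance of the summit from the 5′ end of the span in kb, circles for control and squares for CDCA peaks. Values decline from 7.0 (control) and 4.6 (CDCA) toward the lowest level of each list, and the shared site at 65.5 kb stands apart at 24 and 30.

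Over the 10 overlapping pairs of MALAT1, TUG1 and KCNQ1OT1 the median log2 fold ratio was -0.04, with 4 pairs higher in CDCA and 6 higher in control, beside -0.11 over all pairs of the lists. On scaled heights the count turned to 6 higher in CDCA and 4 higher in control, so these pairs had no common direction. Summits of the 10 pairs lay a median of 45 bp apart, beside 47 bp over all pairs. Neither median sets these genes apart from the lists as a whole.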

How the data were processed

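Per the labels' protocols, RNA depleted of rRNA was immunoprecipitated with an m6A antibody, and NEBNext Ultra libraries were sequenced as read pairs. The submitters' processing notes name MACS2 2.1.0, TopHat2 2.0.13 and hg19 as the build; their roles, the filters and the thresholds are not given. Peaks were listed for each library separately. Summit height is the deposited pileup signal, per the file headers. Each peak's deposited significance is a −log10 q-value, beside a −log10 p-value that was not used. The deposited fold enrichment is a ratio, per the file headers.

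Local background was computed as height plus 1, divided by fold enrichment, minus 1. Heights were whole multiples of 0.862 (control) and 0.640 (CDCA) at every peak (tolerance 0.02 steps), and 1 step was taken as 1 fragment. The weakest listed summits had 12 and 15 steps, and depth in reads is otherwise unknown. In a pair, each peak was the strongest overlapping partner of the other. Intervals for fold ratios are exact binomial intervals of the 2 step counts with the backgrounds held fixed. They cover the counting error of the heights only, not that of the backgrounds. Members and lists were chosen with earlier results of these data known. The rule named, per gene and list, the 5 peaks with the highest −log10 q and each unshared peak whose −log10 q reached 20. The other paired peaks were added after their values had been seen. The overlap step was tested on simulated data in which each peak had at most 1 partner. The choice of the strongest partner and the matching by summit distance were not tested. Sequence under the peaks was not analysed here, since no hg19 genome was used. Alternatives covered span membership, peak thresholds, the definition of overlap and the strength measure. Tools were scipy 1.17.1, pandas 2.3.3, numpy 2.4.6 and matplotlib 3.10.9 under Python 3.11.15.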

Additional observations from a re-analysis of the deposited data

How the results depend on the processing

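Counting any overlap with a span left 23 control and 18 CDCA peaks. Equal list sizes gave the same numbers, but could not change the CDCA number because the CDCA list was already the shorter. Spans widened by 1 kb gave 23 and 19, the added CDCA peak being the one before TUG1. With −log10 q of 20 or more the numbers were 18 and 11, at 50 they were 13 and 8, and at a fold of at least 10 they were 16 and 9, without NORAD. The shared percentage ranged from 39.1% to 62.5% of control peaks over its alternatives. In CDCA it was 50% to 66.7% over those that changed only the overlap, 81.8% (9 of 11) where −log10 q reached 20 and 100% (9 of 9) at a fold of at least 10, thresholds at which 48.2% and 37.9% of all CDCA peaks were shared. The median log2 fold ratio of the pairs had no stable sign: -0.04 as reported, 0.0583 with summits within 100 bp, which pairs the long TUG1 peak with its weaker control partner (its ratio against that partner, 0.64 in place of -0.02, was computed after seeing the data), 0.0255 on scaled heights (6 pairs higher in CDCA and 4 in control, against 4 and 6), 0.0664 after subtracting the median of all pairs and -0.0581 at a −log10 q of at least 20 in both lists. Of the 42 counts per gene whose reported count was above 0, 35 stayed within 1.5 times it, and 6 of the other 7 were in KCNQ1OT1. The 42 include the counts at equal list sizes, which in CDCA could not change. No paired analysis was possible because each group held 1 library.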
